A study of Sus scrofa domesticus with 2 samples.

Results

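Among the barcodes of cultured pig aorta endothelial cells (ECs), 109 held more than 200 detected genes while under 1% of their unique molecular identifiers (UMIs) came from the mitochondrial genome. They were selected on that share alone, over the 13 protein-coding mitochondrial genes ND1 to ND6, ND4L, COX1 to COX3, ATP6, ATP8 and CYTB. They made up 10.6% (8.77 to 12.6%) of the 1030 aorta barcodes with more than 200 genes, and 109 of the 7131 barcodes of the series. The comparison group, called the reference here, was the 844 aorta barcodes with more than 200 genes and a mitochondrial share of 1% to under 30%.

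The series holds 1 library of cultured aorta ECs and 1 of cultured lung ECs from the domestic pig. Cells were released from the inside of the aorta near the lung, or from perfused lung, by collagenase digestion and then grown in a serum-containing medium, so both groups are primary cultures without sorting or treatment. The tissue came from slaughtered pigs, a hybrid of Landrace, Large White and Duroc, and the number of animals behind each library is not given in the sources used here. Each count is a UMI, a captured poly(A) RNA molecule, and a level is the UMIs of a gene summed over a group of barcodes per 1000000 UMIs of that group (CPM). With 1 library per tissue no difference was tested, and all intervals are exact 95% intervals (Poisson for levels, conditional on the summed UMIs for ratios, Clopper-Pearson for shares) that cover counting error only.

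Mitochondrial messenger RNAs are made and translated inside mitochondria, and their share is a common measure of droplet quality, since cytosolic RNA leaks from damaged cells before mitochondria do. Nuclear messages fall into 2 broad groups by where they are translated. Those for cytosolic, nuclear and most mitochondrial proteins are read by free ribosomes, while those for secreted and membrane proteins are carried to the endoplasmic reticulum (ER), in most cases through a hydrophobic signal sequence at the start of the protein that the signal recognition particle binds.

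The coding starts of 3 genes with such a hydrophobic start and 3 without are shown, as examples of the classes compared further on. The bases are the first 75 coding bases of the RefSeq model on Sscrofa11.1, and capitals mark the 8 codons with the highest mean hydropathy where that mean reached 2.5 on the Kyte-Doolittle scale. POSTN encodes periostin, a matrix protein (chr11:13258770-13258844, minus strand), COL8A1 a short-chain collagen of vessel walls (chr13:159224052-159224126, minus strand) and PDIA4 a disulfide isomerase of the ER lumen (chr9:109260974-109261048, plus strand). TAGLN encodes the actin-binding protein transgelin (chr9:44565484-44565558, plus strand), TPM2 a tropomyosin (chr1:236409444-236409518, minus strand) and FABP5 a cytosolic fatty acid carrier (chr4:55282429-55282503, minus strand). All 6 windows lie within 1 coding exon.
POSTN: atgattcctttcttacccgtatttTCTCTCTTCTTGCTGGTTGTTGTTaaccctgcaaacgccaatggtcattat
COL8A1: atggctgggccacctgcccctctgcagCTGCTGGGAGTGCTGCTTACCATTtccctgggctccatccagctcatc
PDIA4: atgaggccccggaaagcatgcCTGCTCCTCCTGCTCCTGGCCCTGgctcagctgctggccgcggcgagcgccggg
TAGLN: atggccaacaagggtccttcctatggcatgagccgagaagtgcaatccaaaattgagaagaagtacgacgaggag
TPM2: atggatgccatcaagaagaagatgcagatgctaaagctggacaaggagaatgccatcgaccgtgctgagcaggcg
FABP5: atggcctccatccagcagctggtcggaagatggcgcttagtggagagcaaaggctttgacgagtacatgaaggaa

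The limit of 1% was set within a continuous range of mitochondrial shares. Of the 1030 barcodes, 54 were under 0.1%, 36 from 0.1 to 0.3% and 19 from 0.3 to 1%, against 18 from 1 to 3%, 89 from 3 to 5% and 665 from 5 to 10%. The 3 members nearest to the limit were at 0.868, 0.958 and 0.977%, and the 3 barcodes nearest to it on the other side at 1.04, 1.12 and 1.30%. The median was 0.104% in members and 6.74% in the reference, and 6 members had 0 mitochondrial UMIs. At the level of the genes that made the selection, COX1 was at 512 CPM in members and 21805 CPM in the reference.

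Members were shallow. They held 400366 UMIs, from a lowest count of 594 through a median of 3208 to a highest of 19491 per barcode, and a median of 1245 detected genes. The reference had a median of 54386 UMIs and 6594 genes. The 135 reference barcodes with fewer than 5000 genes, called the shallow reference, had a median of 8261 UMIs. When every barcode was thinned to 800 UMIs, 8 members were too shallow to keep, and the other 101 had a median of 480 genes against 527 in the reference and 504 in the shallow reference. The 77 barcodes with 30% or more mitochondrial UMIs had a median of 226 genes at that depth. Their median mitochondrial share was 71.7%, so fewer of the 800 UMIs were left for other genes. No barcode sequence of a member occurred in the lung library, which shared 5 barcode sequences with the aorta library as a whole. No doublet caller was run.

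**Figure D1:**
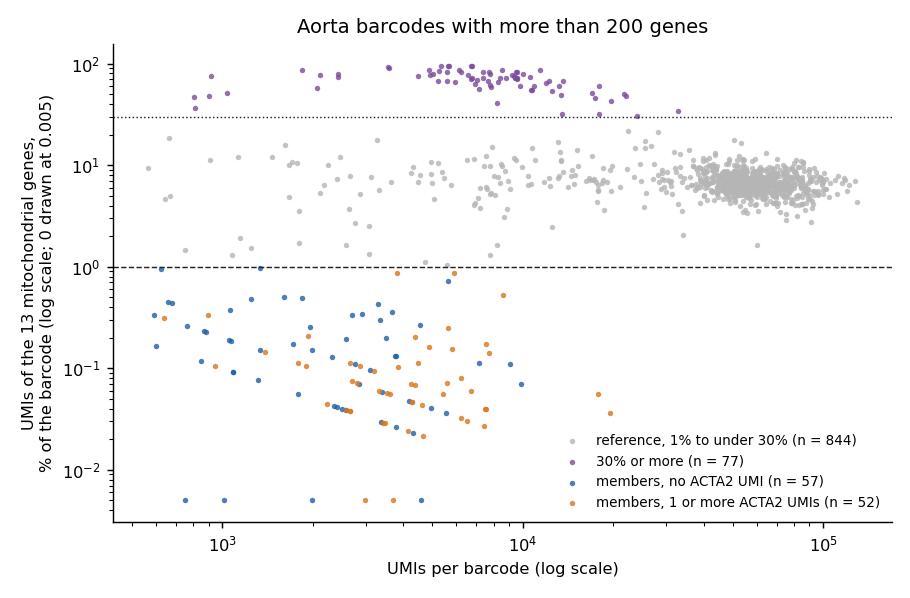
UMIs per barcode (x, log scale) against the percentage of UMIs from the 13 mitochondrial genes (y, log scale, with 0 drawn at 0.005) for the 1030 aorta barcodes with more than 200 genes. The 109 members lie under the dashed line at 1%, with 594 to 19491 UMIs, while most of the 844 reference barcodes lie further to the right around 6.74%, and the 77 barcodes above the dotted line at 30% are again shallow.

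Messages for matrix, surface and ER proteins were lower in the members, while most lists of cytosolic and mitochondrial proteins had medians above 0. Over 2776 genes at a mean of 50 CPM or more, without the 13 mitochondrial genes, 578 were 2-fold or more lower in members (20.8%) and 124 were 2-fold or more higher (4.47%), with a median log2 ratio of 0.13. Against the shallow reference, 636 were lower and 451 higher of 2772 genes. The members' values are not independent of their selection, which was made on the same barcodes, so the counts are a description. Since a pooled level is a mean over barcodes, fewer barcodes with a message and fewer copies in each barcode cannot be told apart from it.

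**Figure D2:**
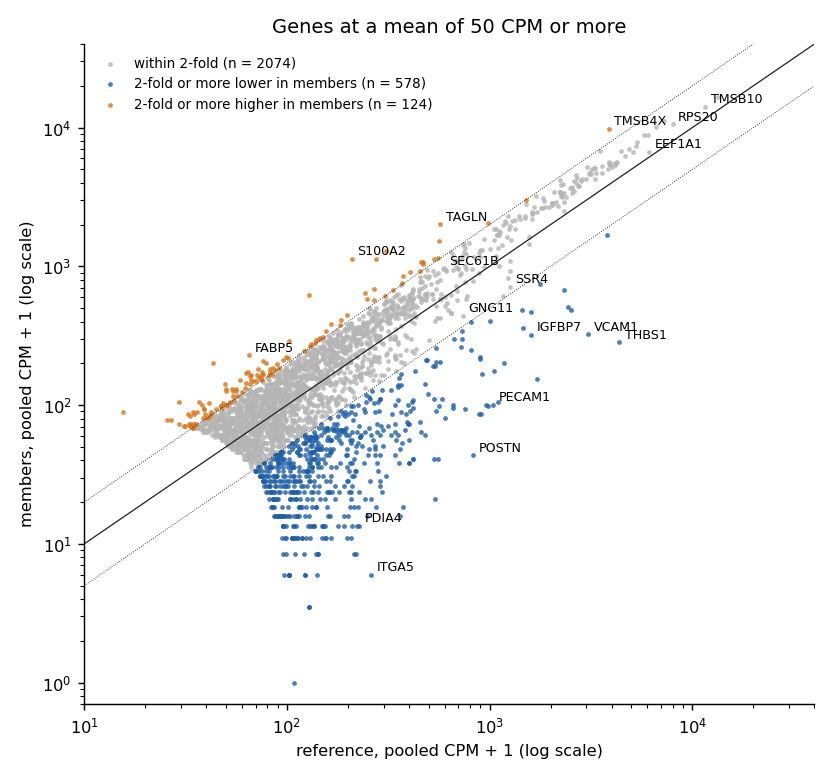
Pooled CPM + 1 of 2776 genes in the reference (x) and in members (y), both on log scales, with lines at equality and at 2-fold. The 578 blue genes spread far under the lower line, among them ITGA5 at 5.00 CPM in members against 260.2 CPM in the reference, while the 124 orange genes lie close above the upper line.

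Messages for matrix and secreted proteins were lower throughout the measured part of their list. Of its 47 features, 30 passed the filter on the mean of both groups. A gene that is low in members can pass this filter only through a high reference level. All 30 were 2-fold or more lower, with a median log2 ratio of -3.33. The summed level of the whole list was 1798 CPM in members and 14945 CPM in the reference. THBS1, the matrix glycoprotein thrombospondin-1, was at 282 CPM (233 to 339) in members and at 4354 CPM (4335 to 4373) in the reference, a log2 ratio of -3.94. IGFBP7, a secreted growth factor binding protein, was at 319.7 against 1606 CPM (-2.33). The fibrillar collagen gene COL1A2 was at 105 against 1095 CPM (-3.37). POSTN was at 42.5 (24.7 to 68.0) against 828 CPM, COL8A1 at 15.0 against 247 CPM and COL5A2, a chain of type V collagen, at 12.5 against 221 CPM, from 17, 6 and 5 UMIs in all 109 members.

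Surface proteins were lower in the same way. Of the 24 features of the endothelial surface and junction list, 12 passed the same filter. All 12 were lower, with a median log2 ratio of -3.10. VCAM1, an adhesion molecule for leukocytes, was at 322 CPM (269 to 383) in members and 3070 CPM (3054 to 3086) in the reference. PECAM1, the junction protein CD31, was at 99.9 (71.4 to 136) against 1037 CPM. Of 27 integrin features 4 passed that filter, and all 4 were lower. ITGB1, the common beta chain, was at 84.9 against 907 CPM. ITGA5, the fibronectin receptor chain, had 2 UMIs in all members, which gave 5.00 CPM against 260.2 CPM and a ratio of 0.0192 (0.00232 to 0.0694). It was detected in 1.83% of members and 94.7% of reference barcodes. The other genes with the lowest ratios were SYNE2, a large nuclear envelope protein (3 UMIs, ratio 0.0342, 0.00705 to 0.0999), APLP2, a membrane protein related to the amyloid precursor (3 UMIs, ratio 0.0351, 0.00724 to 0.103), CRIM1, SELP, FZD4, PTGIS, PDIA4 and ITGAV. CRIM1, a membrane protein that binds growth factors, was at 20.0 against 534 CPM. SELP, the P-selectin that captures leukocytes, was at 15.0 against 359 CPM, and the Wnt receptor FZD4 at 17.5 against 371 CPM. PTGIS, the prostacyclin synthase of the ER membrane, was at 9.99 against 205 CPM, and the integrin chain ITGAV at 12.5 against 209 CPM. These values rest on 4 to 8 UMIs in the members.

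ER machinery was lower as a list, with 28 of 34 measured genes 2-fold or more lower, 0 higher and a median log2 ratio of -1.97. The chaperones and folding enzymes of the ER lumen were among the lowest. PDIA4 was at 12.5 against 226 CPM, HSP90B1 at 39.96 against 555 CPM, HSPA5 (BiP) at 84.9 against 880.5 CPM and CALR (calreticulin) at 92.4 against 753 CPM. The 3 genes of the list that were higher in members were SEC61B at 964 against 591 CPM (log2 ratio 0.70), SEC61G at 362 against 229.8 CPM (0.65) and SERP1 at 347 against 262 CPM (0.41). They were picked out after their values had been seen. They encode the shortest proteins of the measured list, with 96, 68 and 66 residues. Each is anchored by a single segment at its end and put into the membrane after translation. SEC61A1, the channel subunit of the SEC61 complex, has 476 residues, spans the membrane many times and was at 35.0 against 132 CPM (-1.88). SSR4, a short subunit of the translocon-associated complex, lay between at 709 against 1258 CPM (-0.83). Protein length and the way of insertion cannot be told apart here, and neither was tested as a cause.

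Ribosomal, translation factor, proteasome, redox and actin lists had medians above 0. The summed level of the cytosolic ribosomal proteins was 217756 CPM in members and 146925 CPM in the reference, with a median log2 ratio of 0.58 over 56 genes, of which 1 was 2-fold higher and 0 lower. RPS20 was at 10560 against 7991 CPM, and RPS2 at 10161 against 6599 CPM. The median log2 ratio was 0.48 for 39 translation factors, 0.60 for 34 proteasome subunits, 0.59 for 10 redox genes and 0.51 for 22 genes of the actin cytoskeleton. TMSB4X, the thymosin that holds monomeric actin, was at 9771 against 3872 CPM (1.34). In the actin list 2 genes were 2-fold higher and 2 lower. Of the 34 proteasome genes 0 were 2-fold apart in either direction. Of 10 S100 and annexin genes, which bind calcium and membranes, 5 were higher and 0 lower, with a median of 0.88. Because mitochondrial UMIs took 6.86% of the pooled reference and 0.142% of the pooled members, every log2 ratio would fall by 0.10 if they were left out of the total. The medians of glycolysis (0.07) and heat shock proteins (0.05) then turned to -0.03 and -0.06, and the G2M phase median of -0.01 turned to 0.00 when ribosomal UMIs were left out as well, so no direction is given for these 3 lists.

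Nuclear messages for mitochondrial proteins were kept. Of 66 measured nuclear genes of oxidative phosphorylation 2 were 2-fold higher and 0 lower, with a median log2 ratio of 0.57, and of 50 mitochondrial ribosomal proteins 4 were higher and 0 lower, with a median of 0.54. ATP5MC3, a subunit of the ATP synthase ring, was at 939 (847 to 1039) against 605 CPM, and CYCS, cytochrome c, at 774 against 452 CPM. COX4I1, a nuclear subunit of cytochrome oxidase, was at 999.1 against 1107 CPM, while COX1, its mitochondrial partner, was nearly absent by the selection. The solute carriers split in the same way once they were sorted by site, a split made after their values had been seen. The 6 measured SLC25 carriers of the mitochondrial inner membrane had a median log2 ratio of 0.46 with 0 lower, and 7 of the 8 others were 2-fold or more lower with a median of -3.19. SLC25A6, an ADP/ATP carrier, was at 1961 against 1256 CPM.

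Nuclear regulators were mixed. Of 8 measured endothelial transcription factors 4 were lower and 0 higher, with a median log2 ratio of -0.87. ID1 was at 479.6 against 302 CPM and ID3 at 659 against 688 CPM, both short inhibitors of DNA binding, while the longer TCF4 was at 54.9 against 209 CPM. Of 9 immediate early genes 6 were lower (median -1.71), among them IER3 at 247 against 809.8 CPM. Histone (7 genes, 0.36) and S phase (10 genes, 0.61) lists had 0 genes 2-fold apart, and PCNA, the replication clamp, was at 347 against 176 CPM. Of 38 splicing genes 4 were higher and 1 lower (median 0.24). A list of RNAs retained in the nucleus had 0 of its 11 genes among the features and gave no value.

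**Figure D3:**
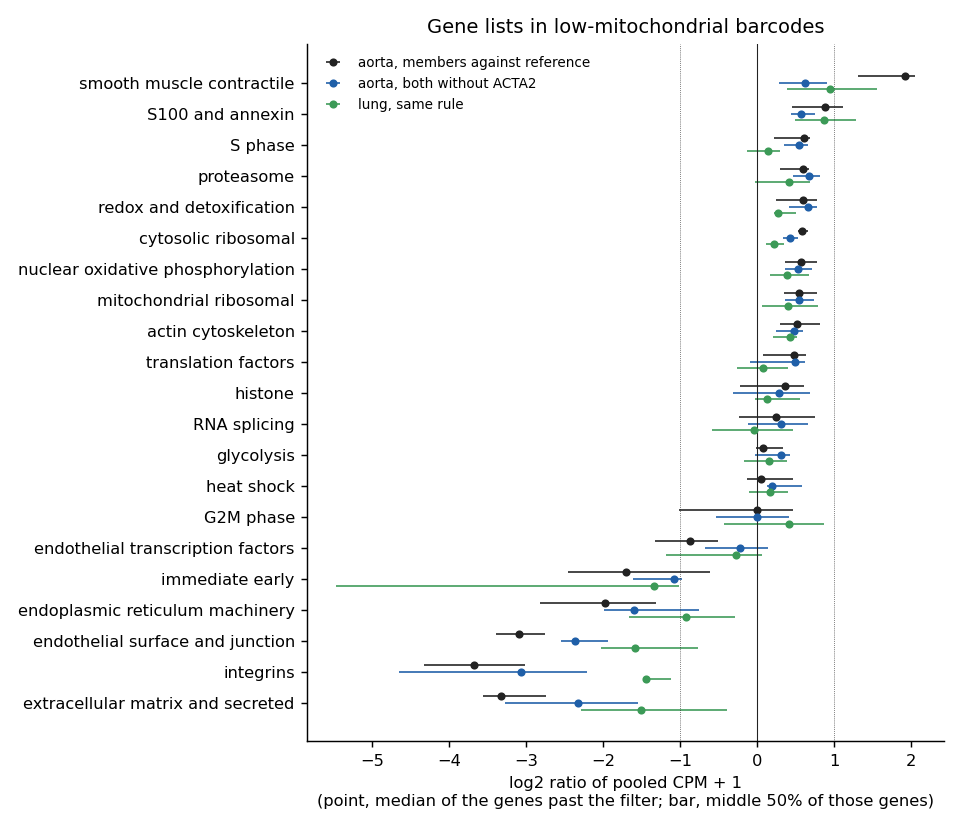
Median log2 ratio of pooled CPM + 1 (points) and the middle 50% of genes (bars) for the gene lists, for aorta members against the reference (black), for aorta barcodes without ACTA2 only (blue) and for the same rule in the lung (green). Matrix, integrin, surface and ER lists lie to the left of 0 in all 3 comparisons, and ribosomal, oxidative phosphorylation and proteasome lists to the right.

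The pattern was then read against the proteins that the genes encode. Of the 2776 genes, 2426 matched a RefSeq protein by Ensembl identifier or, without a single such match, by symbol. A hydrophobic N-terminus was called where a window of 8 residues that began within the first 25 had a mean hydropathy of 2.5 or more, and a later segment where a window of 19 residues after residue 40 reached 1.6. Of 272 genes with a hydrophobic N-terminus 187 were 2-fold or more lower (68.8%), with a median log2 ratio of -1.90. Of 354 genes with a later segment only 126 were lower (35.6%), with a median of -0.48. Of 1800 genes with neither, 222 were lower (12.3%), with a median of 0.25. The same share over all 2426 genes was 22.1%. The call is crude. It found an N-terminus in 36 of 46 matrix and secreted proteins and in 1 of 56 ribosomal proteins, and it missed known signal sequences such as those of PECAM1 and ITGAV, whose best windows reached 2.21 and 2.48.

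The length of the encoded protein went with the ratio as well. Genes that were 2-fold or more lower encoded proteins with a median of 653 residues, against 204 for those higher and 323 for those within 2-fold. Among genes with neither segment, the median log2 ratio was 0.58 under 200 residues, 0.36 from 200 to under 500, -0.32 from 500 to under 1000 and -1.22 at 1000 or more, where 66.7% of 159 genes were lower. Among genes with a hydrophobic N-terminus, it was -0.77 under 200 residues, -2.73 from 500 to under 1000 and -3.32 at 1000 or more. In each of the 4 length classes their median was below that of the genes with neither segment. The lists of cytosolic and mitochondrial ribosomal, oxidative phosphorylation and proteasome genes had medians from 0.54 to 0.60. The 434 genes under 200 residues with neither segment were at 0.58, and the 826 from 200 to under 500 residues at 0.36. These classes were not cleared of the listed genes, and 50 of 56 ribosomal proteins had neither segment. Whether the level was particular to those lists was therefore not tested. Transcript length followed protein length, with medians of 3796 bases for the lower genes and 1328 for the higher, so the length of the protein and that of its message cannot be told apart. SYNE2, with 6941 residues, was lower and had a later segment but no hydrophobic N-terminus.

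**Figure D4:**
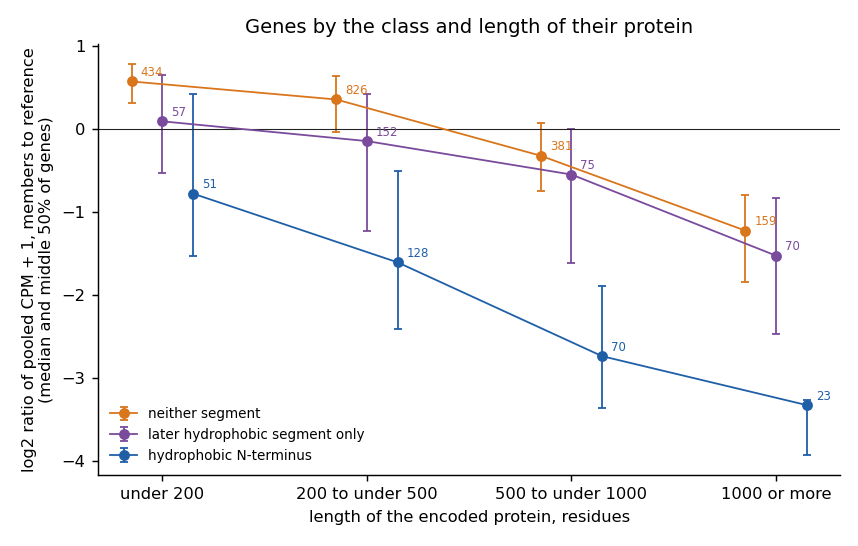
Median log2 ratio of members to reference (points, with the middle 50% of genes as bars and the number of genes beside each) by length of the encoded protein (x) and hydrophobic class. The blue points for genes with a hydrophobic N-terminus run from -0.77 to -3.32 and lie below the other classes at every length, and all 3 classes fall from left to right.

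Most members shared the low level of secretory messages. The 84 matrix, secreted and ER genes together took a median of 0.609% of a member's UMIs (lowest 0.157%, highest 5.78%) and 2.54% in the reference, or 2.47% in the shallow reference. Only 8 of 109 members lay above the 10th percentile of the reference, and 24 of 844 reference barcodes lay below the 90th percentile of the members. Of the 135 shallow reference barcodes, which are part of the 844, 19 lay below it. The ranges therefore overlapped at their ends. Cytosolic ribosomal UMIs took a median of 20.5% of a member (4.33 to 33.7%) and 14.7% of a reference barcode.

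The 4 genes that mark these barcodes did not mark them all. S100A2, a calcium-binding protein, was at 1134 CPM (1032 to 1243) in members and 208 CPM (203 to 212) in the reference, and had a UMI in 50.5% of members. FABP5 was at 227 (183 to 279) against 64.0 CPM and had a UMI in 38.5%. CDA, cytidine deaminase, was at 107 (77.7 to 145) against 60.03 CPM, under 2-fold. LXN, the carboxypeptidase inhibitor latexin, was at 127 (94.8 to 167) against 112 CPM, a ratio of 1.14 (0.849 to 1.504). Between members and reference barcodes without ACTA2, 3 of the 4 markers passed the filter, with a median log2 ratio of 1.86. Of these, 2 were 2-fold or more higher in members and 0 lower, where 5.64% of all 2871 genes were higher. The other genes with the highest ratios were the contractile genes ACTA2 (smooth muscle actin), TPM2 and TAGLN, the complex III subunit UQCRQ (287 against 101 CPM), the histone methylation cofactor DPY30 (207 against 75.3 CPM), the spindle checkpoint gene MAD2L1 (169.8 against 61.7 CPM), the forkhead factor FOXS1 (172 against 63.0 CPM), the calcium-binding S100A11 (1526 against 561 CPM), the actin severing gene DSTN (642 against 241 CPM) and KGD4, a subunit of a citric acid cycle enzyme (149.9 against 57.4 CPM). ACTA2 was found in 47.7% of members and 28.0% of reference barcodes, and pooled ratios of genes that go with it also hold that difference. The contractile list had a median log2 ratio of 1.92 over 6 genes. Between members and reference barcodes that both held ACTA2, it was 1.17 over 7 genes. Since the 4 markers did not mark all members, these barcodes are named by their selection and not by a cell type.

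ACTA2 divided the members. It had 1 or more UMIs in 52 of 109 members (47.7%, 38.1 to 57.5%) and in 236 of 844 reference barcodes (28.0%, 24.96 to 31.1%), although members were far shallower. At 800 UMIs per barcode it was found in 38 of 101 members (37.6%, 28.2 to 47.8%) and 93 of 839 reference barcodes (11.08%, 9.04 to 13.4%). It was found in 2 of the 77 barcodes with 30% or more mitochondrial UMIs, but these hold fewer other UMIs at that depth. With mitochondrial UMIs out of the total, the log2 ratio of ACTA2 in those 77 to the reference was -0.17. Of the 52 members 45 had 2 or more ACTA2 UMIs and 7 had exactly 1. Members with ACTA2 held a median of 4202 UMIs and those without 2346, and the part of this depth gap in the split was not tested.

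The 2 sets differed in the level of many genes. Over 2446 genes, 157 were 2-fold or more higher with ACTA2 (6.42%) and 356 lower (14.6%). Of 6 measured smooth muscle contractile genes, ACTA2 included, 5 were higher with it and 0 lower. TAGLN was at 3007 against 387 CPM and TPM2 at 1724 against 138 CPM. S100A2 went with them at 1764 CPM from 437 UMIs against 111 CPM from 17 UMIs, and so did FABP5 at 343 against 39.3 CPM. In the reference, S100A2 had a UMI in 174 of 236 barcodes with ACTA2 and in 158 of 608 without, and FABP5 in 173 and 203. Pooled S100A2 was at 20.4 CPM in reference barcodes without ACTA2 and 208 CPM in the whole reference. The link of S100A2 and FABP5 to ACTA2 was therefore not particular to the members. HMOX1, the haem-degrading enzyme, was at 682 against 52.4 CPM, S100A4 at 513 against 59.0 CPM and the imprinted gene PEG10 at 295 against 26.2 CPM. CDA and LXN lay on the other side, at 20.2 against 249 CPM and 48.4 against 256 CPM. In the reference, CDA had a UMI in 132 of 236 barcodes with ACTA2 and in 454 of 608 without, and LXN in 193 and 547.

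Endothelial messages were counted in the members without ACTA2, where the share of background RNA was not estimated. GNG11, a G protein gamma subunit, was at 1022 CPM (868 to 1196) in them and 76.7 CPM with ACTA2, GNG2 of the same family at 577 against 24.2 CPM, and the transcriptional cofactor ANKRD1 at 1776 against 105 CPM. The cytosolic kinase BMX had 31 UMIs in the 57 members without ACTA2 and 1 UMI in the 52 with it. The caveolar protein CAVIN2 was at 367 against 24.2 CPM, the surface protein ECSCR at 491 against 24.2 CPM, BST2 at 209.7 against 12.1 CPM and the protease PRSS23 at 236 against 16.1 CPM. Of 14 endothelial markers, 5 of 57 members without ACTA2 had 0 UMIs in all, and 37 of 52 with ACTA2. PECAM1 had a UMI in 23 of 57 and 7 of 52, against 594 of 608 reference barcodes without ACTA2 at their greater depth. TEK, KDR and VWF had 0 UMIs in members, and KDR and VWF were at 0.313 and 0.179 CPM in the reference as well. The smooth muscle calponin CNN1 had 20 UMIs, all in members with ACTA2. MYH11, the smooth muscle myosin, had 1 UMI, in a member without it, and was at 1.67 CPM in the reference.

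**Figure D5:**
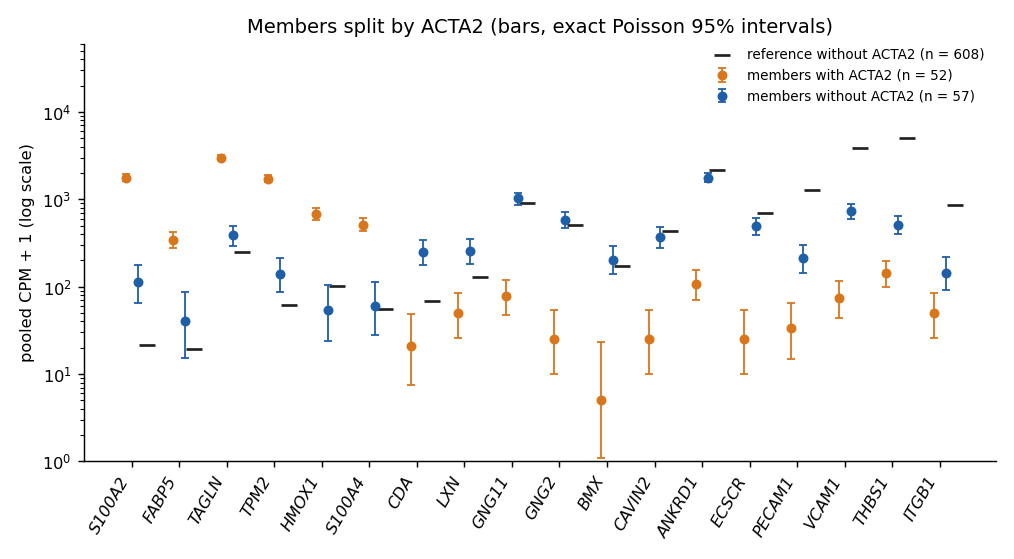
Pooled CPM + 1 (log scale) of 18 named genes in members with ACTA2 (orange) and without (blue), with exact Poisson 95% intervals, and in reference barcodes without ACTA2 (black dashes). S100A2 to S100A4 lie higher in orange, CDA to ANKRD1 higher in blue, and PECAM1, VCAM1, THBS1 and ITGB1 lie below the dashes in both sets.

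Members without ACTA2 were also compared with reference barcodes without ACTA2. The sets were not typed, and 36 of the 57 members had 2 or more UMIs of the 14 endothelial markers, while 255 of the 608 reference barcodes held COL1A1. Over 2871 genes 460 were lower in members (16.0%) and 162 higher (5.64%). The log2 ratio was -2.39 for VCAM1, -2.61 for PECAM1, -3.28 for THBS1, -2.53 for the cadherin gene CDH5 and -2.58 for ITGB1. It was -1.18 for the endothelial transcription factor ERG and -1.12 for TCF4, and the surface gene EMCN was at 0.01 from 7 UMIs in these members. The genes named for a high level in members without ACTA2 are left out here, since that choice raises their ratio. The medians of the lists were -2.33 for matrix and secreted genes (20 of 24 lower), -2.36 for endothelial surface genes (11 of 12), -1.61 for ER machinery (23 of 35), -0.22 for endothelial transcription factors (2 of 10), 0.42 for ribosomal proteins and 0.53 for oxidative phosphorylation. Genes with a hydrophobic N-terminus were lower in 53.7% of 294 cases and those with neither segment in 8.42% of 1840. Between members and reference barcodes that both held ACTA2, the medians were -3.98 for matrix and secreted genes, -4.14 for integrins and -2.53 for ER machinery.

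The rule found 37 barcodes in the lung library, or 0.639% (0.450 to 0.880%) of 5789 with more than 200 genes. They held 56994 UMIs, and the median barcode had 1074. This share was below that of the aorta by more than the counting intervals, but the libraries differ in tissue, depth and preparation at once, and these cannot be told apart. Of 2845 genes 355 were lower in them (12.5%) and 298 higher (10.5%) than in 5671 lung reference barcodes. With so few UMIs a call can rest on 1 molecule, and SYNE2, APLP2, SELP and ITGAV had 1 UMI each in these 37 barcodes. The medians of the lists were -1.51 for matrix and secreted genes (17 of 26 lower), -1.58 for endothelial surface genes (8 of 13), -0.92 for ER machinery (15 of 33), 0.21 for ribosomal proteins and 0.39 for oxidative phosphorylation. Over 2434 genes past the filter in both tissues the log2 ratios had a Pearson correlation of 0.66 and a Spearman correlation of 0.63, given as a description across genes, which share base composition, length and method. Of these genes 520 were lower in the aorta and 13.5% were lower in the lung. The 231 genes lower in both were 44.4% of those lower in the aorta and 70.2% of those lower in the lung. The 37 genes higher in both were 42.0% of the 88 higher in the aorta, against 7.27% of all 2434 genes higher in the lung. S100A2 was at 333 against 58.0 CPM and FABP5 at 246 against 45.9 CPM in the lung barcodes, of which 3 had an ACTA2 UMI.

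The aorta barcodes with 30% or more mitochondrial UMIs, compared with the same reference after mitochondrial UMIs had been left out of the total, had medians of the other sign. These were -1.94 for cytosolic ribosomal proteins, -1.21 for oxidative phosphorylation, 0.44 for ER machinery, 1.73 for matrix and secreted genes and 1.43 for integrins. Both comparisons share the reference barcodes.

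Immune, pericyte, epithelial and red cell markers were at or near 0 in the members. The immune list of 7 genes and the pericyte list of 5 had 1 UMI each, and the epithelial list of 6 and the red cell list of 4 had 0. A count of 0 allows up to 3 UMIs, or 7.49 CPM, as a 1-sided limit. In the reference the immune, epithelial and red cell lists were at 5.96, 0.313 and 0.0223 CPM, all under that limit. The pericyte list was at 65.0 CPM there. Fibroblast markers were lower than in the reference in all 5 measured genes, with COL1A1 at 97.4 against 982 CPM. COL1A2 and POSTN of this list are also matrix genes, which were lower throughout, so the list cannot measure a share of fibroblasts. Within the members it summed to 367 CPM with ACTA2 and 170 CPM without. COL1A1 had a UMI in 16 of 52 members with ACTA2 and 6 of 57 without.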

How the data were processed

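The libraries were made by droplet scRNA-seq of cultured aorta and lung ECs, 1 each. The authors deposited counts, whole numbers of UMIs per gene and barcode from Cell Ranger 3.0.2 on Sscrofa11.1, without normalization. The limits on cells in the study's methods had not been applied, and the lowest barcodes held 552 and 502 UMIs. A gene given only by an Ensembl identifier received a symbol from a table of gene names (1051 of 22804 features). The members and the gene lists were chosen with earlier results of these data known. Barcodes were grouped by their mitochondrial share and UMIs were summed per group. Levels are CPM, and log2 ratios were taken after adding 1 CPM, for genes at a mean of 50 CPM or more in the 2 groups compared. A gene was called higher or lower past a 2-fold ratio. Genes named are the 4 markers, the 12 with the highest and 12 with the lowest ratio at 100 CPM or more and with a UMI in at least 25% of the barcodes of the higher group, 8 each way between members with and without ACTA2, and the 3 most abundant of each list. Others were named after their values had been seen. Intervals were computed with scipy 1.17.1. Thinning drew UMIs without replacement. Proteins were translated from RefSeq models of the same build, joined to the counts by Ensembl identifier or else by symbol. The ratio and its interval were tested on simulated data, and the thinning was checked only for the number of UMIs left per barcode. Near-identical genes, such as ribosomal proteins with pseudogenes or ACTA2 and ACTG2, may share reads. The result of 1 gene list is not reported here. Alternatives covered the limits, the gene filter, the totals, the reference and the depth.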

Additional observations from a re-analysis of the deposited data

How the results depend on the processing

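No paired analysis was possible because each tissue had 1 library. Under a mitochondrial limit of 0.5 or 2%, with 12 mitochondrial genes or with more than 500 genes, the number of members stayed within 101 to 121. The 24 genes with the highest and lowest ratios stayed past 2-fold in the same direction in all 312 pairs of gene and alternative. The gene filters do not enter a gene's ratio, so their pairs could not differ, and a changed total shifts every gene alike. The 24 genes were also picked as the extremes of these data, so this count is a description. The main counts were 124 genes higher and 578 lower of 2776. Genes higher numbered 451 of 2772 against the shallow reference, 77 of 2886 with mitochondrial UMIs out of the total and 322 of 2866 on thinned barcodes. At 20 CPM 222 of 5192 genes were higher and 1385 lower, and at 200 CPM 35 of 725 higher and 87 lower. With no filter 828 of 15799 were higher and 9028 lower. There a gene with 0 UMIs in the shallow members counts as lower, so that count also depends on depth. With ACTA2, genes higher numbered 247 with mitochondrial and ribosomal UMIs left out, 266 on thinned barcodes and 419, 25 and 2020 under those 3 filters, and genes lower 666 thinned and 966, 60 and 3051. Genes past the filter were counted for this split only in the main setting (2446), so its alternatives are given without a share. The share of members with ACTA2 was 37.6% thinned. Alternatives of the reference do not apply to that split.

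These 6 list medians kept their sign under every alternative run, and are given in the order ribosomal, oxidative phosphorylation, ER, matrix, endothelial surface and smooth muscle. At the 2% limit they were 0.50, 0.51, -1.40, -2.68, -1.89 and 1.73. Thinned, they were 0.46, 0.64, -1.61, -2.41, -2.57 and 1.605. Against the shallow reference they were 0.44, 0.88, -1.79, -3.39, -2.79 and 2.15. As means of single-barcode CPM, they were 0.44 for ribosomal, -1.73 for ER, -2.29 for matrix, -2.25 for endothelial surface and 1.62 for smooth muscle genes. With mitochondrial UMIs out, ribosomal was at 0.48, oxidative phosphorylation at 0.47, ER at -2.07 and smooth muscle at 1.82, or 1.83 with ribosomal UMIs out too. Against a reference without ACTA2 and COL1A1 UMIs, ribosomal was at 0.61, oxidative phosphorylation at 0.54, endothelial surface at -3.37 and smooth muscle at 3.74. Only the reference was cleared in this way, and members with ACTA2 stayed in. The smooth muscle list holds ACTA2 itself, so the sign of its median there could hardly change. Ribosomal was at 0.59 with more than 500 genes. At 200 CPM, oxidative phosphorylation was at 0.45 and ER at -1.29. With no filter, oxidative phosphorylation was at 0.53, endothelial surface at -2.89 and smooth muscle at 1.13, and at 20 CPM smooth muscle was at 1.82. The solute carrier median of -1.51 reversed to 0.46 at 200 CPM, where only mitochondrial carriers were left.

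The causes of the other shifts were not tested. A gene at 50 CPM rests on about 20 UMIs in the members, and the single library leaves no measure of spread between cultures.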
